A study of Mus musculus with 9 samples.

Results

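Chemokine receptors are membrane proteins that couple to inhibitory G proteins and steer leukocytes along gradients of small secreted proteins, the chemokines. In T cells they set which tissue a cell can enter and where it stays, and the set a cell carries changes after activation. CD69, a lectin-like membrane protein that appears early after activation, holds lymphocytes in tissue by acting against the egress receptor S1P1. The 8 receptor genes described here were picked by symbol, with earlier results of these data known. They stand outside the helper subset lists made for the same data. Ccr4, Cxcr6, Ccr9 and Ccr10 guide T cells to skin, liver and mucosal tissue. Ccr1, Ccr2 and Cx3cr1 are best known from monocytes and effector lymphocytes. Cxcr4 is the receptor for the bone marrow and stromal chemokine CXCL12. All 8 had a probe set among the 19938 genes with a single symbol, and each had only 1 probe set.

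The 9 arrays measured CD4-enriched spleen T cells of C57BL/6J mice after 72 h with beads coated with anti-CD3 and anti-CD28, 1 bead for 10 cells, in 3 groups of 3 arrays. The first was wild type and the second CD69-/-. The third, called CD69-activated, was wild type with an antibody to CD69 from 24 h, cross-linked by a secondary antibody from 48 h, both at a dilution of 1 in 200. The wild-type and CD69-/- groups received neither antibody, and the labels describe no culture with a control antibody. The sources used here do not give age, sex or the way Cd69 was disrupted. The labels call the samples biological replicates without naming separate mice, and the p-values rest on the spread among them, which may be technical.

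Values are the authors' deposited log2 RMA expression values, 1 per probe set, with array medians of 7.40 to 7.56. They can be compared between groups for 1 gene but not between genes, since each probe set has its own response. Cd69 was at 12.17 in wild type, 9.59 in CD69-/- and 11.79 in CD69-activated cells (group means), with all CD69-/- arrays lowest. Xist was at 6.01 and the Y-linked gene Eif2s3y at 9.78 in CD69-/- arrays, against 12.59 and 4.33 in wild type, so sex and genotype cannot be told apart in any comparison with CD69-/- cells. Besides CD4 T cell markers, genes of B cells, CD8 T cells, NK cells and macrophages differed between the groups, and their values stand beside the receptors. In bulk samples fewer cells of a type and less RNA per cell cannot be told apart.

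The calls below are from limma, at an adjusted p under 0.05 over all genes. Centring each array on its median changed how the called genes divided: the share that was higher went from 55.2% to 73.5% in CD69-/- against wild type, from 42.5% to 13.9% in CD69-activated against wild type, and from 50.7% to 14.5% in CD69-activated against CD69-/-. The receptors whose direction or call moved with that choice are named where their values are given. For the ligand, other receptor, signalling and marker genes named below, calls with centred arrays or the other alternatives were not read. Small differences among them may depend on that choice.

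Of the 8 receptors, Ccr4, Ccr2 and Cxcr6 rose in CD69-/- cells and Ccr1 fell; of all genes 15.1% were called there, 8.36% higher and 6.78% lower. After CD69 activation Ccr4, Ccr2 and Ccr9 fell and none rose, where 23.8% of all genes were called, 13.7% lower and 10.1% higher. The regions upstream of the receptors that rose in CD69-/- cells, and of Ccr1, which fell there, are shown first, as sequences of RefSeq on build GRCm38.p6. Each is the 250 bases before the annotated transcription start, read 5′ to 3′ on the strand of the gene. RefSeq had 7 of the 8 genes in its promoter table, all but Ccr10. Ccr4 lies at chr9:114496545-114496794 on the minus strand, Ccr2 at chr9:124101933-124102182 on the plus strand, Cxcr6 at chr9:123806227-123806476 on the plus strand and Ccr1 at chr9:123968693-123968942 on the minus strand. The Ccr4 window belongs to 1 of its starts, because the annotated gene reaches farther upstream. Capitals mark matches to GGAAA, the core letters bound by NFAT, or to TGANTCA, the letters bound by AP-1, on either strand; both factors are switched on by the T cell receptor.
Ccr4: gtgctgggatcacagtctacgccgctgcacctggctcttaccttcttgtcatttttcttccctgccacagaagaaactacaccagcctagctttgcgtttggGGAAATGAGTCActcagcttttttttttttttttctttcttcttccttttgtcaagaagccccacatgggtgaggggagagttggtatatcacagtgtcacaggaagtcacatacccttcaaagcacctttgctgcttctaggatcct
Ccr2: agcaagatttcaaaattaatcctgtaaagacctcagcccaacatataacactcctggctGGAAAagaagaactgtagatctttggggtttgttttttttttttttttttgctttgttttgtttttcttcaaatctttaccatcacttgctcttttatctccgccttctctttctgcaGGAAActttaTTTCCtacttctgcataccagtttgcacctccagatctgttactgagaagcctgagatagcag
Cxcr6: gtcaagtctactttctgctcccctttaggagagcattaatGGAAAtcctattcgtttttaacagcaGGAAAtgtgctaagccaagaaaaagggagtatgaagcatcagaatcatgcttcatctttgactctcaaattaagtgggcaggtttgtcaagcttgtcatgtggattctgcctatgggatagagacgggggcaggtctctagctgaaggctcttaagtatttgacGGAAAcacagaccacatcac
Ccr1: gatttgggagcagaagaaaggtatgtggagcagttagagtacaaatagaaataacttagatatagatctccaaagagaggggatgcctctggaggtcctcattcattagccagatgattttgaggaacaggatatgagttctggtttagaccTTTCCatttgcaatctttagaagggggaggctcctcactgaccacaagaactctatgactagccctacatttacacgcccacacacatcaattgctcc

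The Ccr4 window held GGAAA from 148 to 144 bases and TGAGTCA from 143 to 137 bases before the start, side by side without overlap. GGAAA directly followed by TGANTCA, on either strand, was found in 13 of 32851 windows of the same length (0.04%). AP-1 letters alone were in 6.75% of windows and in 1 of the 7 receptors with a window. GGAAA was found at least once in 6 of the 7 receptor windows and in 55.6% of all windows. Ccr2 and Cxcr6 each held it 3 times and Ccr1 held it once. How many of all windows hold it 3 times was not counted. The T-box letters AGGTGT, found in 11.8% of windows, were in none of the 7. These motifs were picked after the sequences and the values had been seen, and a match is a description of the letters only.

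Ccr4, the receptor for CCL17 and CCL22 that brings T cells to skin, separated all 3 groups. Ccr4 measured 9.48, 9.41 and 9.40 on the wild-type arrays, 9.90, 9.75 and 9.87 on the CD69-/- arrays and 8.70, 8.78 and 8.81 on the CD69-activated arrays. No 2 groups overlapped, and the order was CD69-/- above wild type above CD69-activated. Ccr4 rose 1.33-fold in CD69-/- cells (log2 difference 0.41, SE 0.050, adjusted p = 0.000187, n = 3 per group). It fell 1.59-fold after CD69 activation (-0.67, SE 0.050, adjusted p = 5.88e-06). Directly compared, CD69-activated cells were 2.10-fold below CD69-/- cells (-1.07, SE 0.050, adjusted p = 6.11e-08), a difference larger than that of any other receptor of the 8.

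Ccr2, the receptor for CCL2 through which monocytes and effector T cells reach inflamed tissue, had the same order with a smaller step on the activated side. The 3 wild-type arrays gave 8.12, 8.09 and 8.001 for Ccr2, the CD69-/- arrays gave 8.67, 8.60 and 8.47 and the CD69-activated arrays 7.89, 7.93 and 7.86. The groups did not overlap, though the lowest wild-type array lay close to the activated ones. Ccr2 rose 1.42-fold in CD69-/- cells (0.51, SE 0.055, adjusted p = 7.97e-05). The fall after activation, 1.13-fold (-0.18, SE 0.055, adjusted p = 0.0352), was lost without wild-type replicate 1 (adjusted p = 0.123) or 2 (0.103), CD69-/- replicate 2 (0.0515) and CD69-activated replicate 1 (0.0768) or 3 (0.0961). CD69-activated cells were 1.61-fold below CD69-/- cells (-0.69, adjusted p = 2.96e-06).

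Cxcr6, the receptor for CXCL16 on liver-resident and effector T cells, was higher in CD69-/- cells than in both other groups. Cxcr6 measured 9.85, 9.85 and 9.69 on the wild-type arrays, 10.46, 10.33 and 10.37 on the CD69-/- arrays and 9.76, 9.89 and 9.92 on the CD69-activated arrays. The CD69-/- arrays stood alone, and the other groups overlapped. The rise of 1.5-fold (0.59, SE 0.059, adjusted p = 4.85e-05) was the largest of the 8 receptors in CD69-/- cells. The difference between CD69-activated and wild-type cells was 0.058 (95% interval -0.073 to 0.19, adjusted p = 0.529) and was -0.024 with centred arrays. CD69-activated cells were 1.45-fold below CD69-/- cells (-0.53, adjusted p = 3.50e-05).

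Ccr1, a receptor for CCL3 and CCL5 on monocytes, neutrophils and effector T cells, moved the other way. The 3 wild-type arrays gave 6.36, 6.43 and 6.39 for Ccr1, the CD69-/- arrays gave 6.14, 6.00 and 5.91 and the CD69-activated arrays 6.37, 6.50 and 6.35. Every CD69-/- array was below every other array, and the other groups overlapped. Ccr1 fell 1.30-fold in CD69-/- cells (-0.38, SE 0.060, adjusted p = 0.00124). In CD69-activated cells it was 1.31-fold above CD69-/- cells (0.39, adjusted p = 0.000361) and differed from wild type by 0.014 (interval -0.12 to 0.15, adjusted p = 0.897), a sign that turned with centred arrays (-0.068) and with loess (-0.029). No detection call came with the values. In the 6 arrays with the female pattern, 3 Y-linked genes (Kdm5d, Uty and Eif2s3y) read 4.30 to 5.32, levels that those probe sets reached without a template. These levels set no floor for the Ccr1 probe set, and Ccr1 is among the dim genes that an alternative below leaves out.

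**Figure D1:**
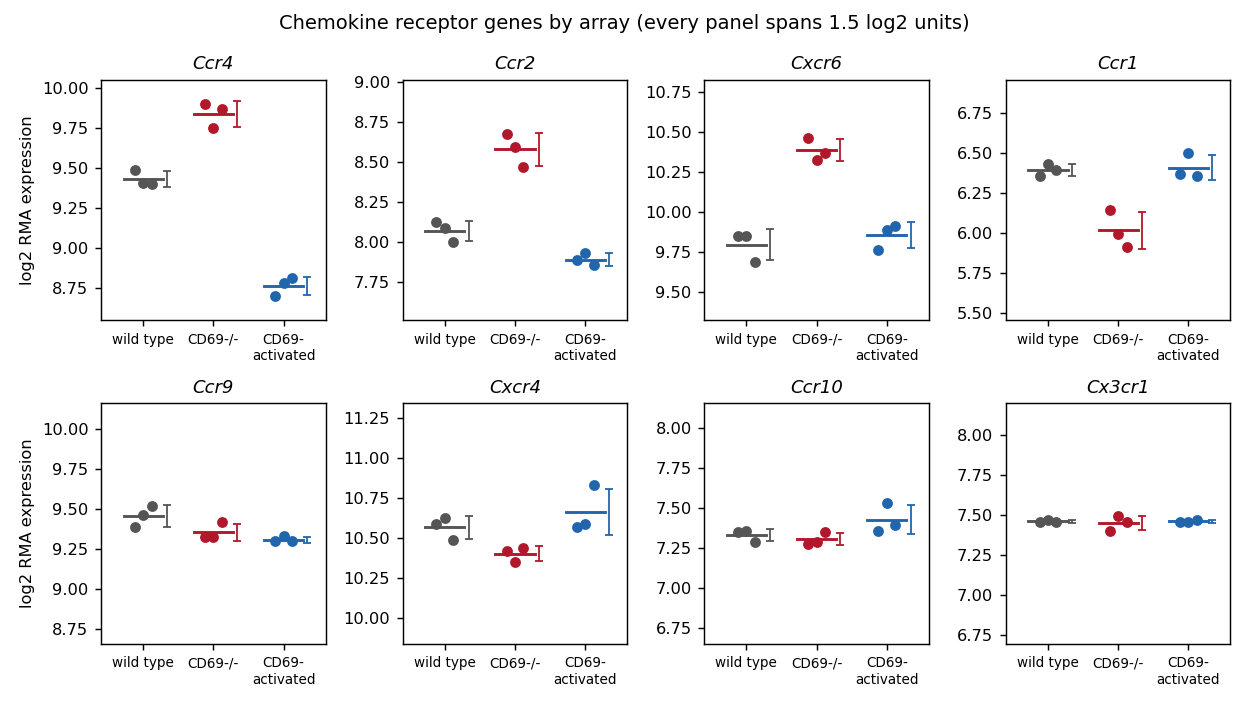
Log2 RMA expression (y axis) of the 8 receptor genes in the 3 arrays of each group (points), with the group mean (line) and SD (bar); every panel spans the same range. Ccr4 separates all 3 groups, from 8.70 at the lowest CD69-activated array to 9.90 at the highest CD69-/- array, while Cx3cr1 stays between 7.40 and 7.49.

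Ccr9, the receptor for the gut and thymic chemokine CCL25, was lowest after CD69 activation. Ccr9 measured 9.39, 9.46 and 9.52 on the wild-type arrays, 9.32, 9.33 and 9.42 on the CD69-/- arrays and 9.30, 9.33 and 9.30 on the CD69-activated arrays. CD69-activated arrays did not overlap with wild type, while CD69-/- arrays overlapped with both. The fall of 1.11-fold after activation (-0.15, SE 0.044, adjusted p = 0.0297) was lost with loess between arrays (adjusted p = 0.0991), and on dropping any of 4 arrays: wild-type replicates 2 (0.0844) and 3 (0.105) or CD69-activated replicates 1 (0.0689) and 3 (0.0683). The CD69-/- difference of -0.10 did not pass (adjusted p = 0.163). CD69-activated and CD69-/- cells differed by -0.047 (adjusted p = 0.397), a difference that became -0.175 and passed with centred arrays (adjusted p = 0.00388) and turned to 0.023 with loess.

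Cxcr4, which holds lymphocytes near stromal cells that make CXCL12, was called only between the CD69-/- and CD69-activated groups. The 3 wild-type arrays gave 10.59, 10.63 and 10.49 for Cxcr4, the CD69-/- arrays gave 10.42, 10.35 and 10.44 and the CD69-activated arrays 10.57, 10.59 and 10.83. All CD69-/- arrays were below all others, and the third CD69-activated array was above the rest. CD69-activated cells were 1.2-fold above CD69-/- cells (0.26, SE 0.067, adjusted p = 0.00883), at 0.18 without CD69-activated replicate 3, and the call was lost with centred arrays (0.13, adjusted p = 0.143). The CD69-/- difference from wild type was -0.16 and did not pass (adjusted p = 0.138); it passed with loess (adjusted p = 0.0375), with the arrays of those groups alone (0.0458) and without CD69-activated replicate 3 (0.0327). CD69-activated and wild-type cells differed by 0.097 (interval -0.050 to 0.24, adjusted p = 0.336).

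Ccr10, the receptor for CCL27 and CCL28 on skin-homing T cells and mucosal plasma cells, was not called in any comparison. Ccr10 measured 7.35, 7.35 and 7.29 on the wild-type arrays, 7.27, 7.29 and 7.35 on the CD69-/- arrays and 7.36, 7.53 and 7.39 on the CD69-activated arrays. CD69-activated arrays lay just above both other groups. The differences were -0.026 for CD69-/- (interval -0.13 to 0.081, adjusted p = 0.794), 0.097 for CD69-activated against wild type (-0.0095 to 0.20, adjusted p = 0.180) and 0.12 for CD69-activated against CD69-/- (0.016 to 0.23, adjusted p = 0.0617). With centred arrays the first was 0.020 and the last -0.0049, so neither has a settled direction; the last passed without CD69-activated replicate 1 (0.16, adjusted p = 0.0317).

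Cx3cr1, the fractalkine receptor of patrolling monocytes and cytotoxic effector cells, had the narrowest range. The 3 wild-type arrays gave 7.46, 7.47 and 7.46 for Cx3cr1, the CD69-/- arrays gave 7.40, 7.49 and 7.46 and the CD69-activated arrays 7.46, 7.46 and 7.47, and 5 of the 9 arrays carried the same deposited value to 6 decimals. Wild-type and CD69-activated cells had equal means of 7.46, with a 95% interval of -0.077 to 0.077 for the difference, which was -0.081 with centred arrays. The CD69-/- difference from wild type was -0.011 (adjusted p = 0.885) and turned to 0.035 with centred arrays and 0.016 with loess. CD69-activated and CD69-/- cells differed by 0.011 (adjusted p = 0.821), which turned to -0.12 and passed with centred arrays (adjusted p = 0.0353).

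In CD69-/- against wild type, 3 receptors were called higher and 1 lower. All 3 CD69-/- arrays lay above all wild-type arrays for 3 receptors, as for 17.3% of all genes, and below them for 2, as for 15.9%. The receptors' median difference was -0.018, beside -0.0091 over all genes. After CD69 activation 3 were lower and none higher; the arrays lay apart from wild type above for 1 receptor, beside 18.1% of all genes, and below for 3, beside 17.9%. The median was 0.0069, beside 0.017 over all genes. The count of 3 fell to 1, Ccr4 alone, without wild-type replicate 2 or CD69-activated replicate 1 or 3. In CD69-activated against CD69-/- cells 2 were higher and 3 lower, where 42.6% of all genes were called, 21.6% higher and 21.0% lower. These groups lay apart above for 3 receptors and below for 3, beside 27.3% and 24.2% of all genes. The 3 comparisons share arrays, so these counts are not independent. The span between the highest and the lowest group mean was 1.07 for Ccr4, 0.69 for Ccr2 and 0.59 for Cxcr6, against 0.12 for Ccr10, 0.15 for Ccr9 and a median of 0.136 over all genes.

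**Figure D2:**
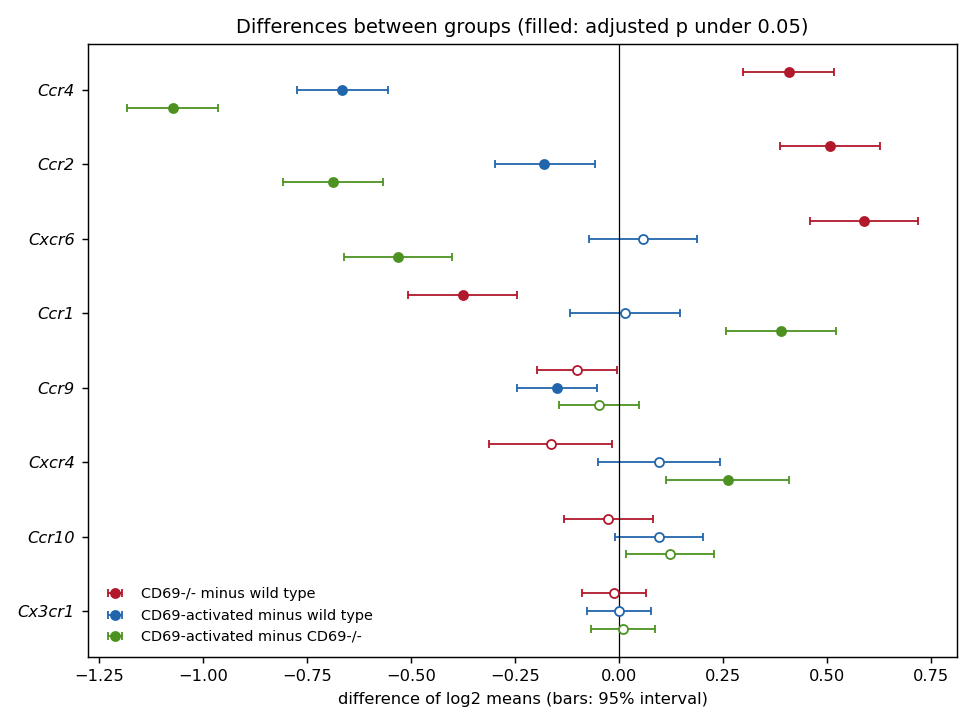
Difference of log2 means (x axis, with 95% interval) for each receptor in the 3 comparisons; filled points have an adjusted p under 0.05. Ccr4, Ccr2 and Cxcr6 lie to the right in CD69-/- against wild type (0.41, 0.51 and 0.59) and Ccr1 to the left (-0.38), while after CD69 activation Ccr4 lies farthest from 0 (-0.67).

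T cell genes rose in the same CD69-/- arrays (the marker genes named here were picked after their values were seen). Of 11 measured CD4 T cell markers 10 rose and none fell (median 0.37), including Cd3d (0.58), Cd4 (0.37) and Thy1 (0.60), and their summed linear level was 53000 to 53900 per CD69-/- array against 38600 to 40800 in wild type and 38500 to 39200 in CD69-activated arrays. Cd8a and Cd8b1 rose by 0.61 and 0.43, and genes on the CD4 T cell list such as Cd3d and Thy1 are not limited to CD4 T cells. With each array set relative to the mean of its CD4 T cell markers, a setting chosen after the data were seen, the CD69-/- difference was -0.0086 for Ccr4, 0.091 for Ccr2 and 0.17 for Cxcr6. Measured that way Ccr1 was at -0.79. The rises of Ccr4 and Ccr2 in CD69-/- cells were thus close in size to the rise of the T cell markers, whose part in the result was not tested further.

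After CD69 activation, where Ccr4 fell by 0.67, the median difference of the CD4 T cell markers was -0.042, with 3 of 11 lower (Trat1 at -0.52, Thy1 at -0.37 and Cd3e at -0.13) and none higher. Relative to their mean, Ccr4 was at -0.58, Ccr2 at -0.092 and Ccr9 at -0.061. Cd8a fell by 0.54 and Cd8b1 by 0.25. Of 9 genes listed as NK cell markers 8 fell (median -0.78), among them Gzma (-1.63), Eomes (-1.06) and Ncr1 (-0.92). The summed level of the 9 was 1890 to 1980 against 3710 to 4000 in wild type. Some of them, such as Gzma and Eomes, are not limited to NK cells. In CD69-/- cells 2 of the 9 rose and 4 fell (median -0.063), with Prf1 at 0.53 and Ncr1 at -0.50. In CD69-activated against CD69-/- cells all 11 CD4 T cell markers were lower (median -0.50), beside 21.0% of all genes. Ccr4 was at -1.07, Ccr2 at -0.69 and Cxcr6 at -0.53 in that comparison. The 2 CD8 T cell markers were lower there too (median -0.92). Of the 9 NK cell markers 6 were lower and 1 was higher (median -0.82). The part of CD4 T cells, CD8 T cells or NK cells in the fall of Ccr4 or in these differences was not tested.

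Markers of monocytes and macrophages fell with Ccr1 in CD69-/- cells, and Ccr2, another receptor of monocytes, rose there. Of 14 such markers 12 fell and none rose (median -0.52; summed level 10200 to 10600 against 14300 to 14800 in wild type and 14400 to 14900 in CD69-activated cells), with Adgre1 at -1.86, Itgam at -0.88 and Csf1r at -0.38. After CD69 activation 4 of them rose, from Csf1r at 0.20 to Adgre1 at 0.85, and 2 fell, Mpeg1 at -0.16 and C1qb at -0.53. The median of the 14 was -0.015, while Ccr1 differed from wild type by 0.014. Of 8 markers of neutrophils, which also carry Ccr1, 1 fell in CD69-/- cells and none was called after activation; their summed level was 637 to 657 in CD69-/- arrays, 678 to 700 in wild type and 653 to 692 in CD69-activated arrays. Dendritic cell markers fell in 4 of 8 cases in CD69-/- cells (median -0.17). Siglech, of the plasmacytoid cells that carry Ccr9, was at -0.18. The same list held Tcf4 at -0.38 and Pacsin1 at 0.14, the latter not called. After activation, where Ccr9 fell by 0.15, 2 of the 8 fell and none rose (median -0.030). Siglech was at -0.072 there and was not called. Plasma cell markers, beside which Ccr10 and Cxcr4 can be read, fell in 5 of 8 cases and rose in 1 in CD69-/- cells (median -0.31). B cell markers, of cells that also carry Cxcr4, fell there in 9 of 9 (median -0.45, summed level 39600 to 42400 against 53900 to 56300). After activation, where neither receptor was called, 5 plasma cell markers fell and none rose (median -0.19). Cxcr4 was higher in CD69-activated than in CD69-/- cells (0.26). In that comparison 9 of 9 B cell markers were higher (median 0.40), beside 21.6% of all genes. Of the plasma cell markers 3 were higher and 2 lower (median 0.015). Of 5 markers of invariant NKT and innate lymphoid cells Gata3 (0.41), Il7r (0.43) and Id2 (0.28), which CD4 T cells also express, rose in CD69-/- cells, while Zbtb16, the factor that defines invariant NKT cells, was at -0.064 and Slamf6 at 0.015, neither called. Neither gamma-delta T cell marker was called. The part of these cells in the receptor values was not tested.

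**Figure D3:**
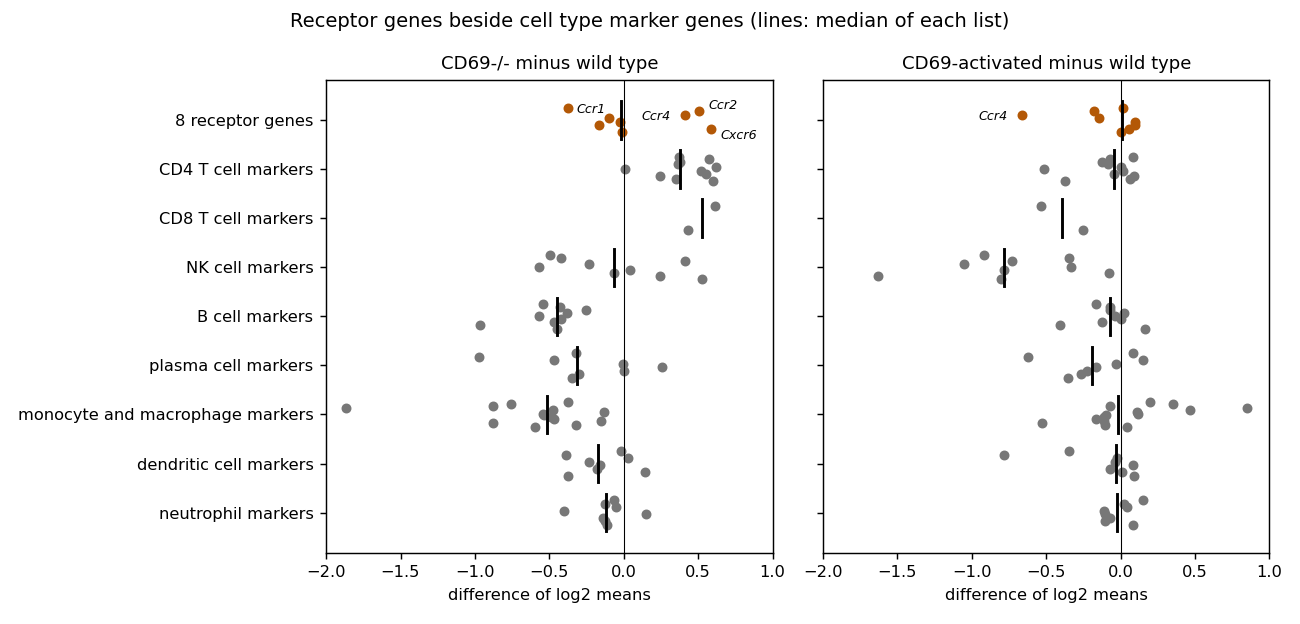
Difference of log2 means (x axis) of the 8 receptor genes and of the marker genes of 8 cell types (points), with the median of each list (line), for CD69-/- (left) and CD69-activated cells (right) against wild type. In CD69-/- cells Ccr4, Ccr2 and Cxcr6 lie within the range of the CD4 T cell markers (median 0.37). Ccr2 and Cxcr6 also lie within that of the CD8 T cell markers, and Ccr4 and Ccr2 within that of the NK cell markers. Ccr1 lies within the range of the monocyte and macrophage markers (median -0.52). It also lies within those of the B cell, plasma cell, NK cell, dendritic cell and neutrophil markers.

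The chemokine genes for these receptors were read from the same arrays for 14 of the 15 genes listed; the other, for a CCR10 ligand, is not analysed here. In CD69-/- cells 3 were higher and 5 lower, where 8.36% of all genes were higher and 6.78% lower. After CD69 activation 1 was higher and 7 lower, where 10.1% of all genes were higher and 13.7% lower. The genes for both CCR4 ligands fell in both comparisons: Ccl22, made by dendritic cells, macrophages and B cells, fell by 0.70 in CD69-/- (SE 0.053, adjusted p = 7.29e-06) and by 1.43 after activation (SE 0.053, adjusted p = 3.63e-08), and Ccl17 fell by 0.66 and 0.84. Ccr4 itself rose in the first comparison and fell in the second. Cxcl16, the ligand of CXCR6, likewise fell by 0.38 in CD69-/- cells, where Cxcr6 rose, and by 0.54 after activation, where Cxcr6 was not called. These comparisons share the wild-type arrays.

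Ligand genes of CCR1 did not share a direction. Ccl3, which activated T cells make, rose by 0.33 in CD69-/- cells (adjusted p = 0.000196) and fell by 1.12 after activation (adjusted p = 3.48e-08). Ccl5 rose by 0.30 and fell by 0.13, and Ccl9 rose by 0.28 and fell by 0.81. Ccl6, a chemokine of myeloid cells, fell in both, by 1.00 and 0.53. Of the CCR2 ligands none was called against wild type. Ccl2 was at -0.10 and 0.093, Ccl7, also a ligand of CCR1, at -0.039 and 0.14 and Ccl12 at -0.023 and 0.033. Ccl2 was higher in CD69-activated than in CD69-/- cells (0.20, adjusted p = 0.018).

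For the remaining receptors 2 ligand genes were called against wild type. Ccl25, for CCR9, rose by 0.24 after activation (adjusted p = 0.00326) and was at 0.042 in CD69-/- cells. Cx3cl1, encoding fractalkine, fell by 0.15 in CD69-/- cells (adjusted p = 0.0489) and was at -0.037 after activation. Cxcl12 was at 0.0052 and 0.052 and Ccl28, for CCR10, at -0.059 and 0.00031, none called. In CD69-activated against CD69-/- cells 3 of the 14 were higher and 5 lower, where 21.6% and 21.0% of all genes were, with Ccl3 at -1.45 and Ccl9 at -1.09.

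**Figure D4:**
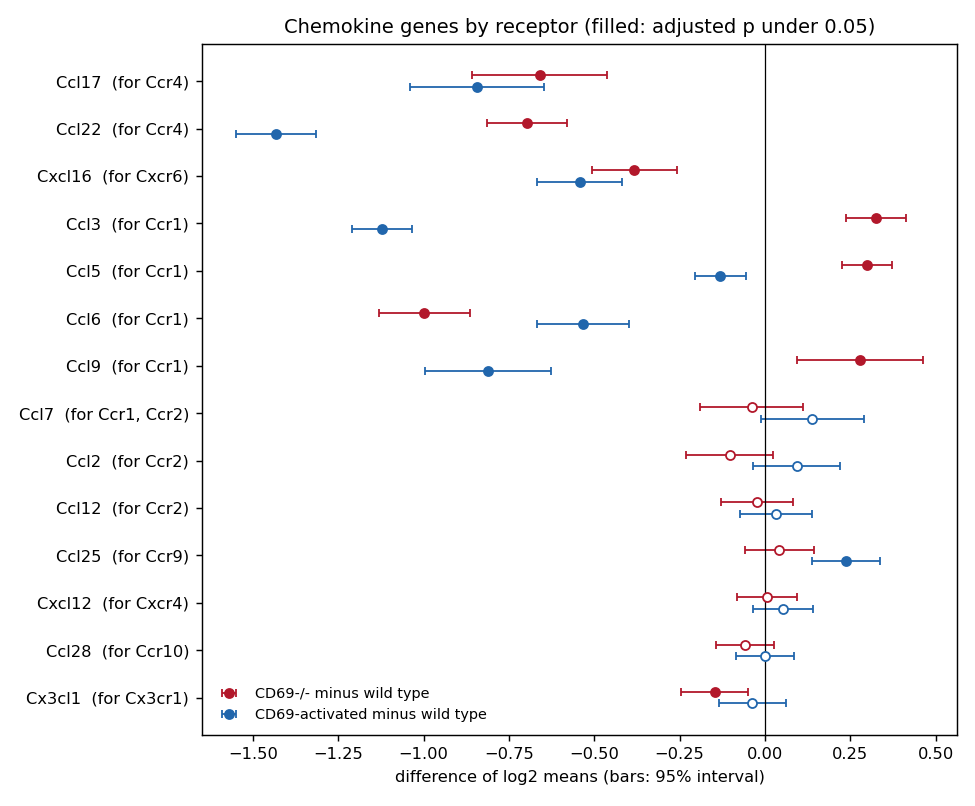
Difference of log2 means (x axis, with 95% interval) of the chemokine genes, each with the receptor it acts on, in CD69-/- and CD69-activated cells against wild type; filled points have an adjusted p under 0.05. Ccl22 and Ccl17 lie left of 0 in both comparisons, and Ccl3, Ccl5 and Ccl9 lie on opposite sides of 0.

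Other chemokine receptors gave 2 higher and 3 lower of 14 measured in CD69-/- cells, where 15.1% of all genes were called, and 3 higher and 3 lower after activation, where 23.8% were. Ccr8, of Th2 and regulatory cells, rose by 0.76 in CD69-/- cells (adjusted p = 2.68e-07) and fell by 0.73 after activation (adjusted p = 1.54e-07). Ccr6 fell by 0.77 in CD69-/- cells, Cxcr3 rose by 0.34 and Cxcr1 fell by 0.24. After activation Ccrl2 fell by 0.46, Cxcr5 by 0.42, and Ccr3 rose by 0.32 (adjusted p = 0.039). The CD69-activated arrays overlapped with wild type for Ccr3 but not for Ccrl2 and Cxcr5. In CD69-activated against CD69-/- cells 6 were higher and 5 lower, beside 42.6% of all genes called, led by Ccr8 (-1.49), Ccr6 (0.91), Ccr3 (0.63) and Ccrl2 (-0.41).

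Of 21 measured genes that carry the signal from these receptors into the cell, 3 rose and none fell in CD69-/- cells, where 15.1% of all genes were called: Arrb2, encoding the beta-arrestin that uncouples receptors (0.27), Grk5, a receptor kinase (0.18), and Rassf5, an integrin activator (0.18). After activation 4 rose and 2 fell, beside 23.8% of all genes called, with Grk5 at 0.45, Arrb1 at 0.19, Elmo1 at 0.15 and Pik3r5, a subunit of the kinase that G proteins switch on, at -0.30. The inhibitory G protein genes Gnai2 and Gnai3, named for their role after the values were seen, were not called in either comparison with wild type (0.023 and 0.049 in CD69-/-, -0.089 and -0.11 after activation), and both were lower in CD69-activated than in CD69-/- cells (-0.11, adjusted p = 0.0305, and -0.16, adjusted p = 0.0105). In CD69-activated against CD69-/- cells 4 were higher and 6 lower, beside 42.6% of all genes called, led by Pik3r5 (-0.46), Grk5 (0.28), Arrb2 (-0.20) and Rassf5 (-0.17).

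Of the 8 receptor genes 6 lie on chromosome 9, Cxcr4 lies on chromosome 1 and Ccr10 on chromosome 11. In RefSeq's order Ccr9, Cxcr6, Ccr1 and Ccr2 stand within a run of 8 protein-coding genes. The neighbours did not share a direction in CD69-/- cells: Cxcr6 rose by 0.59 and Ccr2 by 0.51, Ccr1 between them fell by 0.38, and Xcr1 and Ccr9 were at 0.0021 and -0.10. Fyco1, between Ccr9 and Cxcr6, encodes an autophagy adaptor and was at 0.092 in CD69-/- cells and 0.34 after activation (adjusted p = 0.000414), where Cxcr6 was at 0.058. Ccr1l1 was not called against wild type (0.078 and 0.099), and Ccr3 was at -0.31 in CD69-/- cells (adjusted p = 0.0592). Fyco1 and Ccr1l1 are named for their place in the run. On the same chromosome Cx3cr1 stands next to Ccr8, which moved by 0.76 and -0.73 while Cx3cr1 was not called against wild type.

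**Figure D5:**
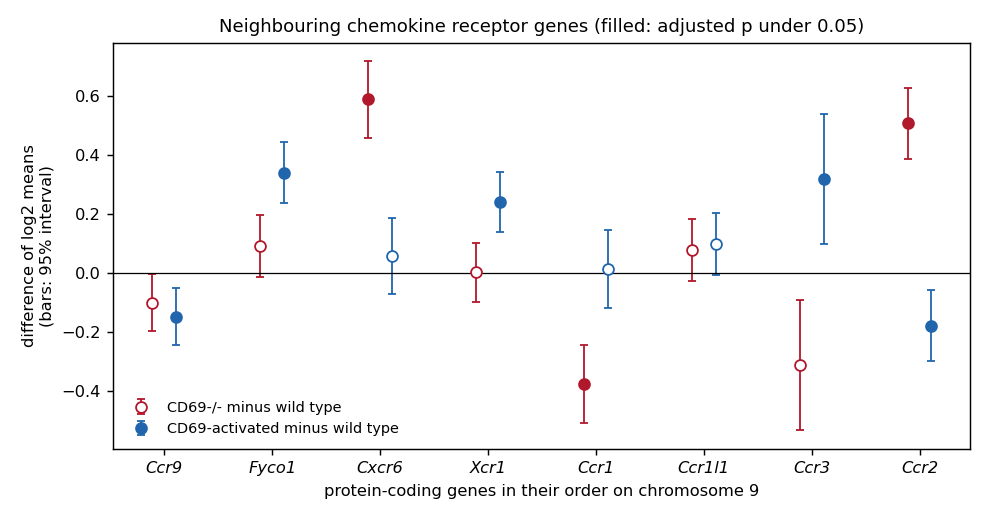
Difference of log2 means (y axis, with 95% interval) of 8 neighbouring protein-coding genes in their order on chromosome 9, not to scale, in CD69-/- and CD69-activated cells against wild type; filled points have an adjusted p under 0.05. Cxcr6 (0.59) and Ccr2 (0.51) stand high in CD69-/- cells on either side of Ccr1 (-0.38).

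The genes whose profile over the 9 arrays was most like that of each called receptor were taken from 1220 genes whose group means spanned at least 0.5. The correlations are descriptions over arrays that fall into 3 groups. Ccr4 was closest to Myl6, Cxcl10 and Sytl3 (Pearson r of 0.997 each); Cxcl10, a CXCR3 ligand induced by interferon gamma, had group means of 10.55 in wild type, 11.19 in CD69-/- and 9.44 in CD69-activated cells. Ccr2 was closest to Tspan5 (0.995), Ddr1 (0.988) and Sh2d2a (0.988), the last encoding an adaptor of activated T cells. Cxcr6 was closest to Itgae (0.995), Hid1 (0.994) and Wdfy1 (0.991); Itgae, the integrin chain CD103 of tissue-resident T cells, was at 9.27, 9.80 and 9.30.

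Ccr1 was closest to Car6 (0.953), Clec4n (0.952) and Havcr1 (0.946); Clec4n, a lectin of myeloid cells, was at 5.92 in CD69-/- cells and 7.05 in CD69-activated cells. Cxcr4 was closest to Pdzd2 (0.932), Slc6a12 (0.923) and Crisp3 (0.909). Ccr9 had the loosest matches, Klra6 (0.884), Bcl2a1c (0.873) and Dleu2 (0.853), and Klra6 and Bcl2a1c belong to families of similar genes that probes may not tell apart. Among the receptors themselves Ccr2 correlated with Cxcr6 at 0.92 and with Ccr4 at 0.90, and Ccr1 with those 3 at -0.86 to -0.74.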

How the data were processed

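The deposited values are on the log2 scale, 1 per probe set and array. Per the submitters' processing notes, the authors used R 2.12.1 with oligo and RMA, which brings arrays to a common distribution and can compress large fold changes. The sources used here give neither its settings nor its annotation. The platform annotation gave 1 symbol for 21789 of 35556 probe sets, several for 1621 and none for 12146, and 21698 were matched by gene ID to RefSeq names. Each of 19938 genes was represented by its probe set with the highest mean of 9 arrays (999 genes had several).

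Groups were compared with limma 3.58.1 in R 4.3.3 (lmFit with 3 group means over all 9 arrays, eBayes, two-sided, Benjamini-Hochberg over all genes; 6 residual and 4.78 prior degrees of freedom). A fold change is 2 to the power of the difference of log2 means. The number of arrays limits the precision. The procedure was tested on simulated data. The receptors and gene lists were chosen with earlier results of these data known. Named genes were the 8 receptors, the ligand genes, up to 4 called genes with the largest change per list and comparison, and the 3 closest profiles per called receptor. Alternatives were median centring, cyclic loess, no dim genes, averaged or all probe sets, only the arrays compared, a trended robust prior, a replicate block, leaving out each array and, added later, centring on CD4 T cell markers. Figures used matplotlib 3.10.9.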

Additional observations from a re-analysis of the deposited data

How the results depend on the processing

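The rises of Ccr4, Ccr2 and Cxcr6 in CD69-/- cells and the fall of Ccr4 after CD69 activation kept direction and call under every alternative other than the reference to CD4 T cell markers, and so did the fall of Ccr1 in CD69-/- cells wherever it was tested. Ccr1 is among the dim genes and had no value when these were left out. The differences that changed sign with centred arrays or loess had not been called before. With centred arrays they were Ccr10 (0.020) and Cx3cr1 (0.035) in CD69-/- against wild type. In CD69-activated against wild type they were Ccr1 (-0.068) and Cxcr6 (-0.024). In CD69-activated against CD69-/- they were Ccr10 (-0.0049) and Cx3cr1 (-0.12), the latter then called (adjusted p = 0.0353). With cyclic loess they were Ccr10 (0.0058), Cx3cr1 (0.016), Ccr1 (-0.029) and, in CD69-activated against CD69-/-, Ccr9 (0.023) and Cx3cr1 (-0.042). Leaving out 1 array gave -0.032 to 0.013 for Cx3cr1 in CD69-/- cells, -0.013 to 0.032 for it between CD69-activated and CD69-/- cells, and -0.032 to 0.040 for Ccr1 after activation; receptors called after activation then numbered 1 to 3. Relative to CD4 T cell markers Ccr4 was at -0.0086 in CD69-/- cells and Ccr9 at 0.46 between CD69-activated and CD69-/- cells. That reference shifts every gene, and 19459, 9308 and 19023 genes were then called in the 3 comparisons, so no call of a receptor is drawn from it. Same-numbered arrays did not deviate together (correlations of -0.242 to 0.142), and with the replicate number as a block 4, 3 and 5 receptors were called, as without it. No group had enough arrays for the check on single outlying samples.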

Other observations

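The value of Cx3cr1 was the same on 5 of the 9 arrays to 6 decimals. Of all 19938 genes 1109 (5.56%) shared 1 value on at least 5 arrays. Ccr1, Ccr2, Ccr4, Ccr9, Cxcr4 and Cxcr6 had 9 different values each, and Ccr10 had 1 value shared by 2 arrays.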
